A study of Mus musculus with 7 samples.

Results

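The genes described here build some of the sugar structures of the liver other than N-glycans. They are those of O-linked glycans, of the heparan sulfate and chondroitin sulfate chains of proteoglycans, and of the glycosylphosphatidylinositol (GPI) anchor. This anchor ties proteins to the outer face of the cell membrane. The genes were chosen by name, as 49 genes of these pathways out of the 54532 genes in the deposited table. Liver RNA came from 2 groups of male C57BL/6 mice, an inbred strain, all 30 weeks old at collection. The CR group (caloric restriction, n = 4 mice) had been restricted for 18 weeks from the age of 12 weeks, stepped up over the first weeks to 30% less food, and the AL group (fed ad libitum, n = 3 mice) ate freely. Each mouse gave 1 library, numbered here as CR replicates 1 to 4 and AL replicates 1 to 3. CR mice lived alone and were given their food as 1 daily meal, and AL mice lived together with food always present, so that effects of diet, housing and meal timing cannot be told apart.

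O-linked glycans start with a sugar on serine or threonine. In the Golgi the GALNT enzymes add N-acetylgalactosamine (GalNAc) and so start the mucin type, in the endoplasmic reticulum (ER) other enzymes add fucose, glucose or mannose, and in the nucleus and cytosol OGT adds a single N-acetylglucosamine (GlcNAc). Heparan sulfate and chondroitin sulfate are long sulfated chains on a common linker that starts with xylose, and liver proteoglycans carrying heparan sulfate take up lipoprotein remnants. The GPI anchor is assembled on phosphatidylinositol in the ER, from a first GlcNAc through 3 mannoses with ethanolamine phosphates, and a transamidase then joins it to the protein.

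Levels are in FPKM (sequenced fragments divided by gene length in kilobases and by depth), so that genes are compared per length. The libraries held 16486665 to 19900806 reads in genes for CR and 15641740 to 16101631 for AL. Hepatocyte markers were high in every library, with a summed level of 48883 to 54560 FPKM in CR livers against 23671 to 38528 FPKM in AL livers, and all 8 were above 0 throughout (1 rose). The sums rest largely on 1 gene, which averaged 31152 FPKM over all libraries. Of the 8 fold changes 6 were above 0 and 2 below. AL replicate 3 stood apart from the other AL libraries in Lcn2, an acute-phase gene, at 765 FPKM against 33.8 and 35.1 FPKM. Calls of the named genes that turn on this library are given with it left out. Saa1, another acute-phase gene, passed the test between CR and AL with any single library left out, AL replicate 3 among them. Lcn2 passed with none of them left out (limma adjusted p from 0.0745 to 0.234). Mitochondrial genes took 5.62 to 8.09% of reads in CR livers against 3.92 to 4.85% in AL livers. Endothelial markers, none of whose 10 genes passed the test, summed to 40.6 to 85.5 FPKM in CR livers, with CR replicate 3 lowest, and to 85.6 to 91.8 FPKM in AL livers. Kupffer cell markers (1 of 9 rose, 1 fell) summed to 112 to 298 FPKM in CR livers and 197 to 304 FPKM in AL livers, and stellate cell markers (0 of 9 tested rose, 2 fell) to 52.4 to 102 FPKM in CR livers and 51.2 to 78.8 FPKM in AL livers. Red cell markers, of which 4 of 5 rose and 1 fell, summed to 251 to 397 FPKM in CR livers and 152 to 198 FPKM in AL livers. Bile duct markers (18.4 to 43.2 FPKM in CR livers, 26.3 to 78.4 FPKM in AL livers), lymphocyte markers (at most 1.26 FPKM in CR livers and 2.61 FPKM in AL livers) and neutrophil markers (5.95 to 18.9 FPKM in CR livers, 8.33 to 22.3 FPKM in AL livers, with Ly6g at 0) had no gene past the test. Adipocyte markers summed to 1.29 to 3.79 FPKM in CR livers and 6.35 to 19.0 FPKM in AL livers, with Lep at 0, and 1 of 2 tested genes fell. The part of these cell types in the results was not tested, and in bulk liver fewer cells of a type and less RNA per cell cannot be told apart.

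Of the 49 genes, 45 reached 0.5 FPKM in at least 3 of the 7 libraries and were tested in 1 limma fit over all 12699 genes that did. Differences are CR minus AL in log2(FPKM + 0.1), given as log2 fold changes, and p-values are adjusted over the 12699 genes. At an adjusted p under 0.05, 2 rose (Pigp and Pigf), 7 fell (Piga, Pigq, Pigm, Extl3, Galnt4, Galnt10 and Poglut1) and 36 did not pass. These 9 are 20.0% of the 45, against 21.5% of all genes tested, so that the share of changed genes was near the background. By direction, 4.44% rose against 11.3% of all genes tested, and 15.6% fell against 10.2%. The counts by role and by list below stand beside these shares of all genes, and no test of any of them was made. The median log2 fold change of the 45 was -0.18, beside -0.002 over all genes tested, with 14 above 0 and 31 below. It was about the same, -0.19, in 114 companion genes, other genes of the same pathways described below, with 45 above 0 and 69 below. The CR and AL values did not overlap for 15 of the 45, against a background of 34.4% of all genes tested. The 5 changes in Pigp, Piga, Pigq, Extl3 and Galnt4 passed the test with any single library left out, and the other 4 did not. The same 5 genes, and none of the other 4, passed when all 25678 genes above 0 were tested.

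**Figure D1:**
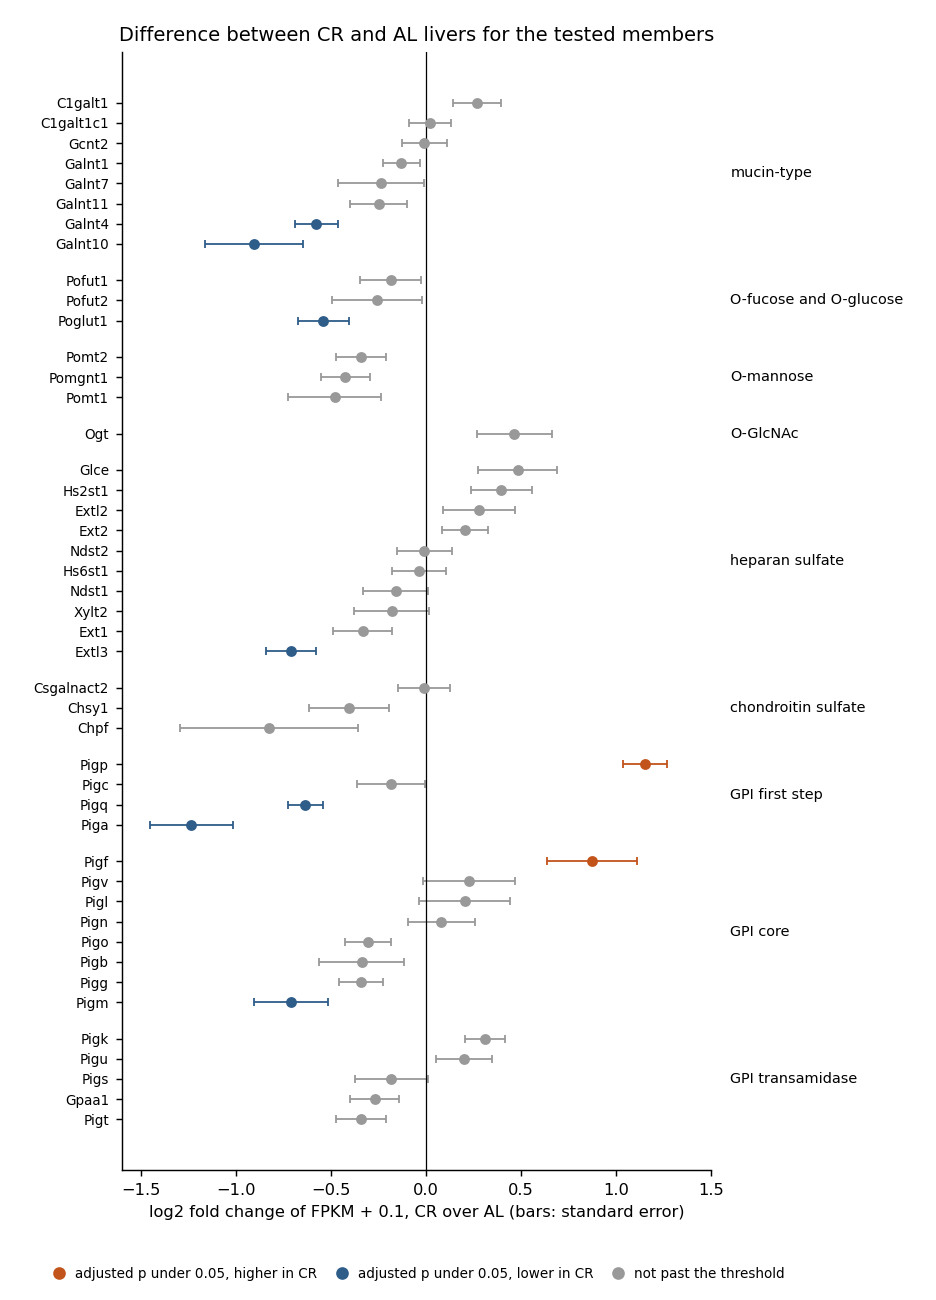
Log2 fold change of FPKM + 0.1, CR over AL, on the x axis for the 45 genes tested, grouped by role, with points for the estimate and bars for the standard error from limma. The 2 genes that rose, Pigp and Pigf, and 3 of the 7 that fell, Piga, Pigq and Pigm, all belong to GPI anchor synthesis.

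Of 17 tested GPI genes 5 changed (29.4%), against 4 of the 28 other genes tested here (14.3%) and 21.5% of all genes, and no test of these shares was made. The Pigm and Pigf calls among the 5 were lost with most single libraries left out. The other 3 genes encode subunits of 1 enzyme, the GlcNAc transferase that puts the first sugar on phosphatidylinositol. Its catalytic subunit gene Piga fell and its small subunit gene Pigp rose. The promoter stretches of these 2 genes, from RefSeq on GRCm38.p6, are shown because the 2 genes went in opposite directions. The Piga window ends just before the annotated gene (chrX:164419530-164419779, plus strand) and the Pigp window lies before an annotated start within the gene (chr16:94371016-94371265, minus strand), and neither holds an exon base. Another stretch of 30 bases (chr16:94370790-94370819, minus strand) comes from another Pigp window and shows in capitals the reverse complement of TGACGTGG, the core of the unfolded protein response element (UPRE). That window lies wholly in annotated exons.
Piga: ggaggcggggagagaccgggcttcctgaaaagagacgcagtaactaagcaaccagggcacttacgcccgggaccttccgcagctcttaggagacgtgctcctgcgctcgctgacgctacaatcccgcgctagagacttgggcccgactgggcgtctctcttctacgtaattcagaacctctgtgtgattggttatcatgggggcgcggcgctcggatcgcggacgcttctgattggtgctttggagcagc
Pigp: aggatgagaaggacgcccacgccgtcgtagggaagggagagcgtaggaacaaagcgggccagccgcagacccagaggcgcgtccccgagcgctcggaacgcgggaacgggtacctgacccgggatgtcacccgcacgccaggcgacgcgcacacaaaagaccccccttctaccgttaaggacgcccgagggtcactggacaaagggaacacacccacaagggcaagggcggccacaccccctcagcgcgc
Pigp, UPRE core: cctccggccctCCACGTCAaccagacccgc

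Windows of 250 bases before the start were found for 37 of the 49 genes, 52 windows in all, and both strands were searched. The UPRE core was in 1 of the 52, the Pigp window above, beside 0.563% of all 32851 windows in the table. The ER stress response element (ERSE) was in none of the 52, beside 0.113% of all windows. The cyclic AMP response element TGACGTCA was in 2, those of Chpf and Galnt11, beside 1.55% of all, and in none of the windows of the 6 changed genes that had one (Piga, Pigq, Galnt10, Poglut1, Pigp and Pigf). A match is a stretch of letters and not a measured binding site.

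Piga, on chromosome X from 164419787 to 164433916, had 0.757, 0.976, 0.896 and 0.704 FPKM in CR livers, against 2.45, 2.42 and 1.52 FPKM in AL livers. All 4 CR values lay below all 3 AL values, and AL replicate 3 was the lowest of its group. The log2 fold change was -1.23 (SE 0.22, limma adjusted p = 0.00774), and with each library left out in turn the adjusted p ran from 0.00381 to 0.0403. The gene shares no exon base with another measured gene, and its level rests on 90 to 262 reads.

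Pigp, on chromosome 16 from 94358763 to 94371842, had 8.47, 7.41, 8.43 and 7.59 FPKM in CR livers, against 3.09, 3.64 and 3.91 FPKM in AL livers. The CR values were close together and well above every AL value. Its log2 fold change of 1.15 (SE 0.12, limma adjusted p = 0.000838) was the largest rise among the 45 genes. Of its exon bases 326 (16.4%) are shared with Ttc3 on the opposite strand, which had 2.18 to 3.15 FPKM in CR livers against 1.17 to 1.66 FPKM in AL livers and rose as well (log2 fold change 0.92, limma adjusted p = 0.0114). Whether reads were counted by strand is not stated in the sources, and the part of Ttc3 reads in the Pigp value was not tested.

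Pigq, the gene of a further subunit, had 4.36, 4.57, 4.43 and 4.55 FPKM in CR livers, against 6.99, 6.58 and 7.48 FPKM in AL livers. The 4 CR values differed by less than the AL values did among themselves, and the groups did not overlap. Its log2 fold change was -0.63 (SE 0.09, limma adjusted p = 0.00393), and the gene lies on chromosome 17 from 25926421 to 25944510. Pigc, another subunit, averaged 2.10 ± 0.38 FPKM in CR livers and 2.39 ± 0.33 FPKM in AL livers (SD, n = 4 and 3) with overlapping values and did not pass (limma adjusted p = 0.504). Pigh, needed for the complex, was the lowest of the subunits, at 0.457, 0.235, 0.209 and 0.398 FPKM in CR livers against 0.557, 0.469 and 0.635 FPKM in AL livers, and was too low to be tested.

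As a description of how far the subunits moved apart, the ratio of Pigp to Piga FPKM was 11.2, 7.59, 9.41 and 10.8 in CR livers, against 1.26, 1.51 and 2.57 in AL livers. Every CR ratio was above every AL ratio, which follows from the values of the 2 genes and adds nothing to them. AL replicate 3 was again the AL library nearest to CR. The exon bases shared with Ttc3 bear on the Pigp value in this ratio as well. No test is given, since both genes were singled out after their values were seen.

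**Figure D2:**
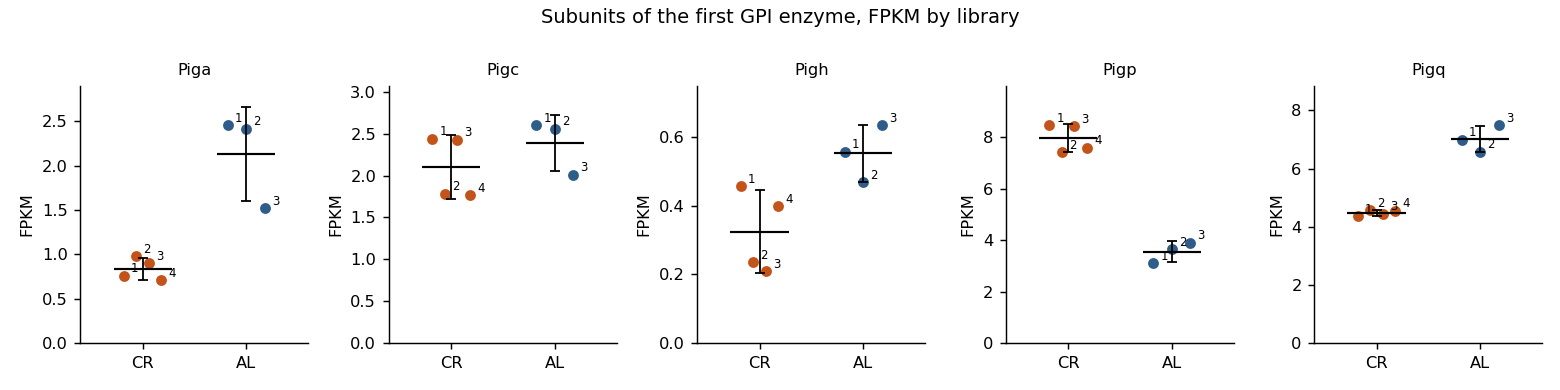
FPKM on the y axis of the 5 genes for subunits of the GlcNAc transferase, with a point per library numbered by replicate, a bar for the mean and error bars for the SD, CR (n = 4) left of AL (n = 3). Pigp lay between 7.41 and 8.47 FPKM in CR livers, above every AL value, while Piga and Pigq lay below every AL value.

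To build the core of the anchor, Pigl removes the acetyl group from the first GlcNAc. The mannosyltransferases Pigm, Pigv and Pigb then act in this order. The ethanolamine phosphate transferases are Pign, Pigg and Pigo, with Pigf as the partner of Pigg and Pigo. Of these 8 genes 1 rose and 1 fell. Pigm, on chromosome 1 from 172376546 to 172384099, had 2.12, 1.76, 1.68 and 1.58 FPKM in CR livers, against 3.69, 3.16 and 2.23 FPKM in AL livers. The lowest AL value, in replicate 3, was just above the highest CR value. This gave a log2 fold change of -0.71 (SE 0.19, limma adjusted p = 0.0380). The call was lost without AL replicate 1 or 2 or CR replicate 2, 3 or 4, with an adjusted p of 0.0115 to 0.125 over the 7 libraries left out in turn.

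Pigf, on chromosome 17 from 86997256 to 87025406, had 4.33, 4.14, 5.14 and 4.75 FPKM in CR livers, against 1.55, 3.10 and 3.05 FPKM in AL livers. AL replicate 1 was well below the rest, and no AL value reached the CR values. Pigf thus had a log2 fold change of 0.87 (SE 0.24, limma adjusted p = 0.0375). The call was lost without AL replicate 2 or any of the 4 CR libraries, with an adjusted p of 0.0336 to 0.0828 over the libraries left out. Pigf is short, its values rest on 25 to 94 reads, and 312 of its exon bases (31.6%) are shared with Rhoq on the opposite strand. Rhoq, a small GTPase, had 5.16 to 6.02 FPKM in CR livers against 1.72 to 3.14 FPKM in AL livers and also rose (log2 fold change 1.26, limma adjusted p = 0.00448), and its part in the Pigf value was not tested.

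The other 6 core genes did not pass. Pigg had 3.22, 3.85, 3.23 and 3.40 FPKM in CR livers against 4.44, 4.00 and 4.66 FPKM in AL livers, without overlap (log2 fold change -0.34, limma adjusted p = 0.0698). Pigo was at 2.63 to 3.29 FPKM in CR livers and 3.35 to 3.85 FPKM in AL livers, also without overlap (limma adjusted p = 0.110). Both enzymes use Pigf as their partner, and neither gene moved past the test in either direction. The lowest was Pigb, with 0.772, 0.808, 0.655 and 0.517 FPKM in CR livers against 0.842, 0.767 and 1.07 FPKM in AL livers. Pigl, Pigv, Pigb and Pign overlapped between the groups, with log2 fold changes from -0.34 to 0.23. Pigl and Pigb share exon bases with Ncor1 and 2310009A05Rik on the opposite strand.

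No gene of the transamidase passed. Its catalytic subunit gene Pigk had 4.33, 4.83, 4.86 and 4.32 FPKM in CR livers against 3.80, 3.45 and 3.77 FPKM in AL livers, without overlap, at a log2 fold change of 0.31 (SE 0.10, limma adjusted p = 0.0697). Pigt, which holds the complex together, leaned the other way, with 9.25, 8.84, 7.68 and 7.42 FPKM in CR livers against 10.1, 9.39 and 12.2 FPKM in AL livers (log2 fold change -0.34, limma adjusted p = 0.101). The highest of the 5 was Pigs, at 7.91, 11.6, 10.5 and 7.91 FPKM in CR livers against 10.2, 8.85 and 13.3 FPKM in AL livers, and the lowest was Pigu, at 1.78, 1.95, 1.62 and 1.80 FPKM in CR livers against 1.43, 1.43 and 1.79 FPKM in AL livers. Gpaa1, whose product helps form the bond to the protein, averaged 7.38 ± 0.99 FPKM in CR livers and 8.87 ± 0.52 FPKM in AL livers (SD, n = 4 and 3).

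Of 12 further GPI synthesis and remodelling genes tested, 2 rose and 2 fell. Pigx, the partner that keeps the Pigm mannosyltransferase stable, rose to 6.03, 7.11, 6.23 and 6.94 FPKM in CR livers, against 3.61, 3.39 and 4.60 FPKM in AL livers (log2 fold change 0.76, SE 0.13, limma adjusted p = 0.00774). Pigx and Pigm, as Pigp and Piga above, are partners whose genes moved in opposite directions. The Pigm call, however, was lost with most single libraries left out, and exon overlap with other genes was not examined for Pigx. Gpld1, a phospholipase that cleaves GPI anchors and is secreted by the liver into blood, was the highest of this list at 48.4 to 49.3 FPKM in CR livers against 33.4 to 36.3 FPKM in AL livers (log2 fold change 0.48, limma adjusted p = 0.00771). Mppe1, which trims the anchor after transfer, fell (log2 fold change -0.65), as did Mpdu1, which aids the use of dolichol-linked mannose (log2 fold change -0.38), but the Mppe1 call held only without AL replicate 2 and the Mpdu1 call only without CR replicate 1 (limma adjusted p up to 0.109 and 0.107 with another library left out). Pigy was not found in the table.

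Among 21 tested genes for proteins that carry the anchor, 1 rose and 5 fell. Nt5e, the ecto-enzyme that makes adenosine, was at 4.02, 2.52, 2.68 and 2.13 FPKM in CR livers against 0.942, 0.719 and 0.626 FPKM in AL livers (log2 fold change 1.75, limma adjusted p = 0.00295). Vnn1, a pantetheinase, was at 5.13, 2.53, 1.98 and 5.71 FPKM in CR livers against 18.3, 18.2 and 21.5 FPKM in AL livers (log2 fold change -2.43, limma adjusted p = 0.00401). The other 4 that fell were Efna1, an ephrin ligand (log2 fold change -1.38), Gpc1 (-1.36), Ly6e (-1.10) and Gpc4 (-0.50). The call was lost for Efna1 without AL replicate 1 or 2 or CR replicate 1 or 2, for Ly6e without AL replicate 2 or 3 or CR replicate 1, and for Gpc4 without AL replicate 1 or 2 or CR replicate 2 (limma adjusted p up to 0.103, 0.0716 and 0.0827). Bst2, the highest of the list, did not pass (90.1 to 156 FPKM in CR livers, 144 to 157 FPKM in AL livers, limma adjusted p = 0.141), but did without CR replicate 3 (0.0182).

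**Figure D3:**
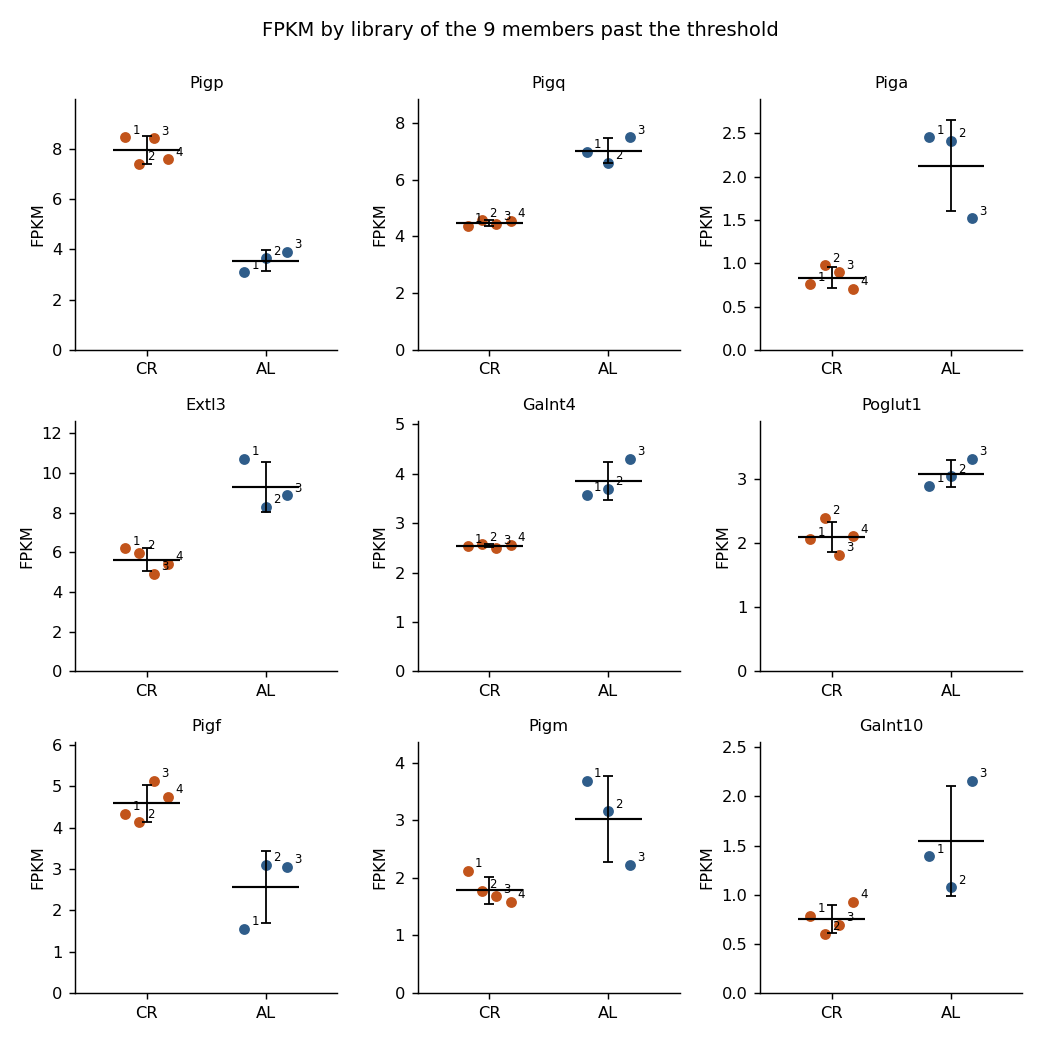
FPKM on the y axis for the 9 genes past the threshold, with a point per library numbered by replicate, a bar for the mean and error bars for the SD, CR (n = 4) left of AL (n = 3). In each panel no CR value overlaps an AL value, and the gap is narrow for Pigm and Galnt10.

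Mucin-type glycans start with the GALNT enzymes. Of the 8 tested genes of this type 2 fell (25.0%, against 10.2% of all genes tested) and none rose (against 11.3%). Galnt4, whose enzyme works on peptides that already carry GalNAc, had 2.53, 2.57, 2.50 and 2.56 FPKM in CR livers, against 3.57, 3.69 and 4.30 FPKM in AL livers. The CR libraries were nearly equal and all lay below the AL libraries. It fell by 0.58 on the log2 scale (SE 0.11, limma adjusted p = 0.0112). The gene lies on chromosome 10 from 99108159 to 99113247 and shares 420 exon bases (8.25%) with Poc1b on the same strand, which was at 0.937 to 1.45 FPKM in CR livers against 0.953 to 1.46 FPKM in AL livers.

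Galnt10, an enzyme of the same kind, had 0.785, 0.604, 0.695 and 0.929 FPKM in CR livers, against 1.39, 1.08 and 2.16 FPKM in AL livers. AL replicate 3 was well above the other AL libraries, and the groups did not overlap. The log2 fold change was -0.90 (SE 0.26, limma adjusted p = 0.0435) and the call held only without AL replicate 2, with an adjusted p of 0.0453 to 0.101 over the 7 libraries left out. It lies on chromosome 11 from 57645442 to 57787514. Galnt1, Galnt7 and Galnt11, further enzymes of the family, had log2 fold changes of -0.13, -0.24 and -0.25 with overlapping groups.

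C1galt1 extends the first GalNAc to the core 1 disaccharide, and its chaperone C1galt1c1 is needed to fold it. C1galt1c1 had 12.0, 11.6, 14.1 and 11.3 FPKM in CR livers against 11.0, 12.8 and 12.4 FPKM in AL livers (log2 fold change 0.02). C1galt1 was at 11.2 to 15.1 FPKM in CR livers and 9.91 to 11.5 FPKM in AL livers (log2 fold change 0.27, limma adjusted p = 0.167). Gcnt2, which makes I branches, was at 3.22 to 3.64 FPKM in CR livers and 3.17 to 3.95 FPKM in AL livers. Gcnt1, which makes the core 2 branch, was the lowest gene of all 49, at 0.136, 0.263, 0.0838 and 0.134 FPKM in CR livers against 0.110, 0.148 and 0.0806 FPKM in AL livers, and was not tested.

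Galnt2, an enzyme of the liver that modifies lipoprotein-related proteins, was listed at only 0.0749 to 0.292 FPKM and was not tested. Most of its transcript sequence, 86.1% of all stretches of 100 bases, is also found in Gm20388, a gene listed at 0 in every library, so that reads from either gene could not be assigned to only 1 of them. The deposited value of Galnt2 therefore does not show its level in these livers.

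Of 7 other tested genes grouped here with the mucin type, 3 fell and none rose. St3gal1, which caps core 1 with sialic acid, was at 10.6, 11.8, 14.3 and 15.7 FPKM in CR livers against 31.3, 29.2 and 19.6 FPKM in AL livers (log2 fold change -1.01, limma adjusted p = 0.0120, and 0.0534 without AL replicate 2). St6galnac6, another sialyltransferase, was at 5.17 to 6.71 FPKM in CR livers against 11.1 to 12.9 FPKM in AL livers (log2 fold change -0.97, limma adjusted p = 0.00238). Galnt18 had a log2 fold change of -1.27 that, among the 7 libraries left out in turn, passed only without AL replicate 3 (limma adjusted p up to 0.165).

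Fucose and glucose are added to EGF repeats, as in Notch receptors, by Pofut1 and Poglut1, and fucose to thrombospondin repeats by Pofut2. Poglut1 had 2.05, 2.39, 1.82 and 2.10 FPKM in CR livers, against 2.89, 3.03 and 3.31 FPKM in AL livers, without overlap. Its log2 fold change was -0.54 (SE 0.13, limma adjusted p = 0.0264), but the call held only without CR replicate 2, with an adjusted p of 0.0336 to 0.0831 over the libraries left out. The gene lies on chromosome 16 from 38525137 to 38550258. Pofut2 (log2 fold change -0.26) overlapped between the groups, as did Pofut1, the lowest of the 3, with 1.46, 1.77, 1.61 and 1.56 FPKM in CR livers against 1.88, 1.51 and 2.16 FPKM in AL livers.

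The genes of O-mannose did not pass, although all 3 had negative fold changes. Pomgnt1, which adds GlcNAc to the mannose on dystroglycan, was nearest to the threshold, with 2.56, 2.80, 3.30 and 3.38 FPKM in CR livers against 4.05, 4.06 and 4.04 FPKM in AL livers (log2 fold change -0.42, SE 0.13, limma adjusted p = 0.0517). The AL values were almost identical and lay above every CR value. Pomt1 and Pomt2 form the mannosyltransferase. Pomt2 was at 2.62 to 2.69 FPKM in CR livers and 3.06 to 4.07 FPKM in AL livers (limma adjusted p = 0.101) and shares 465 exon bases with Gstz1 on the opposite strand, a gene that averaged 110.0 FPKM. Pomt1, the lowest of the 3, had 1.98, 1.89, 1.05 and 1.64 FPKM in CR livers against 2.34, 1.80 and 2.75 FPKM in AL livers.

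Of 20 other tested genes of these O-fucose, O-glucose and O-mannose pathways, 2 rose and none fell. Tmem5, the xylosyltransferase gene now called Rxylt1 that acts on the dystroglycan glycan, was at 4.90 to 5.76 FPKM in CR livers against 2.36 to 3.27 FPKM in AL livers (log2 fold change 0.94, limma adjusted p = 0.00433). Tmtc2, of a family that puts mannose on cadherins, had a log2 fold change of 0.96 (limma adjusted p = 0.0198, and 0.0746 without AL replicate 2). B4gat1, the highest of this list, did not pass.

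Ogt, the only transferase for O-GlcNAc on nuclear and cytosolic proteins, was among the higher of the 49 genes. It had 17.0, 15.9, 12.6 and 12.4 FPKM in CR livers, against 8.71, 9.08 and 14.0 FPKM in AL livers. AL replicate 3 lay within the CR values and the other AL libraries below them. The log2 fold change was 0.46 (SE 0.20, limma adjusted p = 0.134), and without AL replicate 3 the adjusted p was 0.0259. The gene for the enzyme that removes the sugar, listed as Mgea5 and now called Oga, leaned the other way, with 11.9, 10.6, 8.31 and 7.46 FPKM in CR livers against 17.6, 18.8 and 11.1 FPKM in AL livers. Its log2 fold change was -0.71 (SE 0.23, limma adjusted p = 0.0629), and without AL replicate 3 the adjusted p was 0.0182. The ratio of Ogt to Mgea5 was 1.43 to 1.66 in the 4 CR livers, against 0.496, 0.483 and 1.26 in AL livers. All 4 CR ratios were above the AL ratios, with AL replicate 3 close to the CR range. The ratio was formed after the values were seen and is given without a test.

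**Figure D4:**
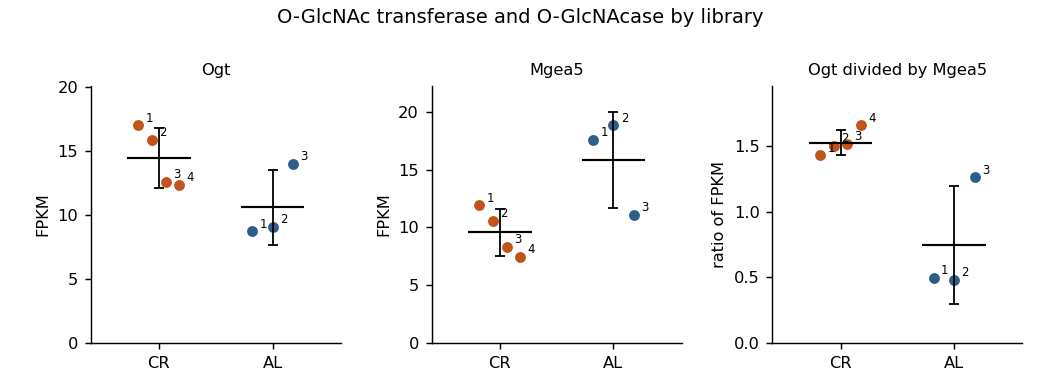
FPKM of Ogt and of Mgea5 (Oga) and, at the right, the ratio of both, on the y axes, with a point per library numbered by replicate, a bar for the mean and error bars for the SD, CR (n = 4) left of AL (n = 3). The ratio lay between 1.43 and 1.66 in CR livers, and AL replicate 3 at 1.26 was apart from the other AL libraries at 0.496 and 0.483.

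Heparan sulfate genes included the highest of the 49 and only 1 that changed. Extl3, which adds the first GlcNAc of the chain to the linker, had 6.20, 5.97, 4.92 and 5.41 FPKM in CR livers, against 10.7, 8.28 and 8.87 FPKM in AL livers. Every CR value lay below every AL value. Extl3 fell by 0.71 on the log2 scale (SE 0.13, limma adjusted p = 0.00885), and the gene lies on chromosome 14 from 65052060 to 65149855 with no measured gene on its exons. The polymerase subunits did not pass: Ext1 was at 3.47 to 4.98 FPKM in CR livers and 4.76 to 6.01 FPKM in AL livers (log2 fold change -0.33), and Ext2 at 4.34 to 4.84 FPKM in CR livers and 3.45 to 4.53 FPKM in AL livers (log2 fold change 0.20). Extl2, which can end the linker, had a log2 fold change of 0.28, and Xylt2, which adds the starting xylose, one of -0.18.

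The sulfating and epimerizing enzymes shape the chain after it is made. Ndst1, which swaps acetyl for sulfate on glucosamine, was the highest of the 49 genes, with 29.6, 29.5, 23.3 and 24.3 FPKM in CR livers against 24.6, 27.9 and 37.9 FPKM in AL livers (log2 fold change -0.16). Its highest value was in AL replicate 3, and without that library the log2 fold change was 0.02. Hs6st1, a 6-O-sulfotransferase, followed at 19.4 to 28.4 FPKM in CR livers and 24.0 to 26.6 FPKM in AL livers, and Ndst2 at 6.03 to 7.12 FPKM in CR livers and 5.75 to 8.13 FPKM in AL livers. All 3 genes overlapped between the groups.

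Glce, the epimerase that turns glucuronic into iduronic acid, was at 5.08 to 6.56 FPKM in CR livers and 2.88 to 5.18 FPKM in AL livers (log2 fold change 0.48, limma adjusted p = 0.138). Hs2st1, which sulfates the iduronic acid, was the lowest of the heparan sulfate genes, with 2.50, 3.00, 2.89 and 2.36 FPKM in CR livers against 1.81, 1.80 and 2.48 FPKM in AL livers. Its log2 fold change was 0.40 (SE 0.16, limma adjusted p = 0.122), and without AL replicate 3, the highest AL library, the adjusted p was 0.0441.

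Of the 4 chondroitin sulfate genes among the 49, 3 were tested and none passed, and all 4 averaged under 3 FPKM. Csgalnact2, which adds the first GalNAc of the chain, was the highest, at 2.40, 2.28, 3.03 and 2.37 FPKM in CR livers against 2.37, 2.63 and 2.57 FPKM in AL livers. Csgalnact1, an enzyme of the same step, was at 0.287, 0.204, 0.138 and 0.216 FPKM in CR livers against 0.0603, 0.220 and 0.0756 FPKM in AL livers, resting on 5 to 29 reads, and was not tested. The chain synthase gene Chsy1 had a log2 fold change of -0.40 (limma adjusted p = 0.212). Its partner Chpf varied widely within both groups, with 0.222, 0.190, 0.454 and 0.712 FPKM in CR livers against 1.19, 0.626 and 0.449 FPKM in AL livers (log2 fold change -0.82, SE 0.47, limma adjusted p = 0.250).

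Of 16 other tested genes of glycosaminoglycan synthesis, 1 rose and 4 fell. Sulf2, which removes 6-O-sulfates from heparan sulfate outside the cell, was at 2.54, 2.71, 2.52 and 3.08 FPKM in CR livers against 0.711, 0.832 and 1.17 FPKM in AL livers (log2 fold change 1.51, limma adjusted p = 0.00189). Of the 4 that fell, 3 build the common linker after xylose: B3galt6 (log2 fold change -1.01), B3gat3 (-0.67) and B4galt7 (-0.45), and the fourth was Chst13 (-0.98), which sulfates chondroitin. Each of these 4 calls was lost without AL replicate 1 or 2, and without CR replicate 1 as well, with a limma adjusted p of up to 0.109 for B3galt6, 0.107 for B3gat3, 0.105 for B4galt7 and 0.0553 for Chst13. Without AL replicate 3 the adjusted p was 0.0560 for B4galt7 and 0.0539 for Chst13, and the B4galt7 call held only without CR replicate 2. Hs3st3b1, a 3-O-sulfotransferase of heparan sulfate and the highest of this list, did not pass (log2 fold change -0.61, limma adjusted p = 0.0684), but did without AL replicate 3 (0.00849).

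Of 10 genes for the supply of the sugar and sulfate donors, transporters among them, 2 rose, 1 fell and 7 did not pass. Papss2, a synthase of the sulfate donor PAPS and the highest of these genes, was at 89.1, 82.3, 56.7 and 58.2 FPKM in CR livers against 40.6, 32.1 and 39.9 FPKM in AL livers (log2 fold change 0.91, limma adjusted p = 0.0154, and 0.0659 without AL replicate 2). Ugdh, which makes UDP-glucuronic acid, was at 66.3, 65.6 and 66.2 FPKM in CR replicates 1 to 3 but at 30.8 FPKM in CR replicate 4, within the AL range of 25.5 to 32.1 FPKM (log2 fold change 0.98, limma adjusted p = 0.0440), and the call held only without CR replicate 4 (limma adjusted p up to 0.126). Papss1, the other PAPS synthase, fell (log2 fold change -0.54, limma adjusted p = 0.0412), a call held only without CR replicate 2 (up to 0.0908).

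Among 15 genes of glycosaminoglycan breakdown 3 rose, among them the lysosomal genes Ids (log2 fold change 0.74) and Hgsnat (0.68, adjusted p in limma 0.0516 without AL replicate 2), and 1, the hyaluronidase Hyal1, fell (-1.12). Hexa, the highest of them in AL livers, did not pass. Of 14 core proteins that carry these chains none rose and 3 fell: the glypicans Gpc1 and Gpc4, listed with the GPI-anchored proteins above, and agrin, Agrn (log2 fold change -0.47), whose call was lost with any library left out (limma adjusted p from 0.0510). Ambp, the precursor of the plasma chondroitin sulfate proteoglycan bikunin and the highest of the list, was at 1580 to 2464 FPKM in CR livers and 1427 to 3148 FPKM in AL livers. Without ER chaperones, of which 16 of 18 fell and none rose, 114 companion genes were tested, and 11 rose and 17 fell, 24.6% against the 21.5% of all genes.

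**Figure D5:**
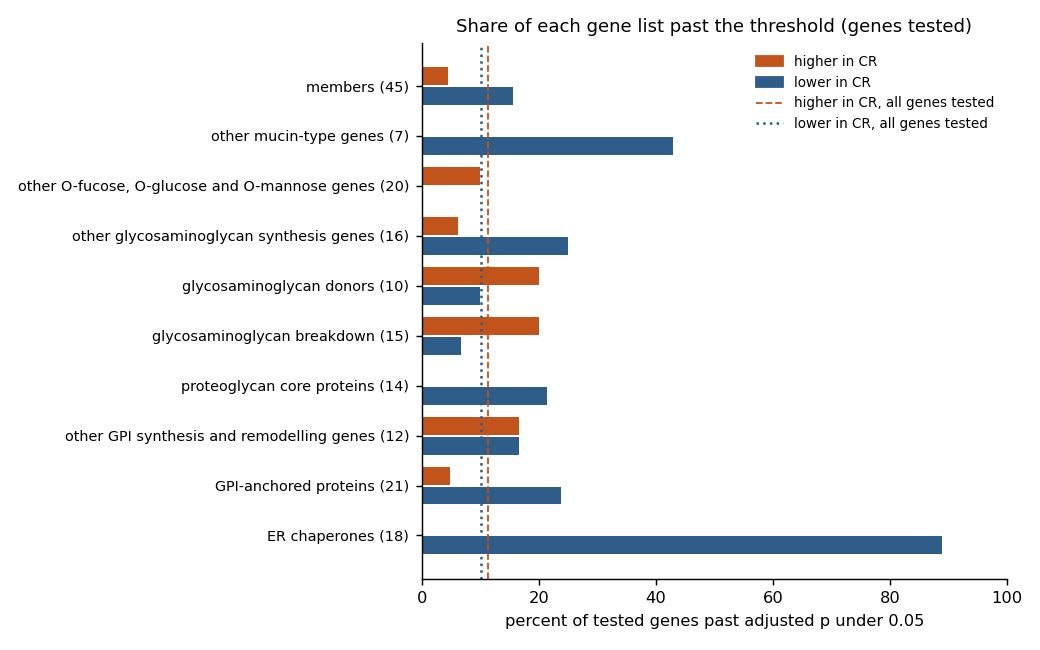
Percent of the tested genes of each list past an adjusted p under 0.05 on the x axis, higher in CR above lower in CR, with the number of genes tested in parentheses and dashed and dotted lines for all genes tested (11.3% and 10.2%). The 45 O-glycan, glycosaminoglycan and GPI genes had 4.44% higher and 15.6% lower.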

How the data were processed

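Liver RNA of 7 mice was measured, 1 library per mouse, grouped by diet from the sample labels. Poly(A) RNA was sequenced in paired-end reads. The authors deposited FPKM for 54532 genes. HISAT2 2.0.5, featureCounts 1.5.0-p3, CASAVA 2.19 and the builds GRCm38 and mm10 are named in the processing notes of the submitters. How FPKM were computed and whether counting used strand are not stated there. Multiplied by gene length, 100.0% of values in each library were whole multiples of a constant, taken as reads, within 0.01 reads, and no pair of libraries was a duplicate.

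FPKM were transformed to log2(FPKM + 0.1). The filter kept the 12699 genes that reached 0.5 FPKM in 3 libraries or more. CR minus AL was tested two-sided in limma 3.58.1 under R 4.3.3, with a trended, robust variance (statmod 1.5.0), and p-values were adjusted over those genes by Benjamini-Hochberg. Fold changes on this scale understate the change of low genes. The test was checked on simulated data, where calls of unchanged genes were somewhat more frequent than the nominal rate, which bears most on calls with an adjusted p near 0.05. The simulated data had far fewer changed genes than were called here and no library set apart like AL replicate 3. The rate of such calls in these livers is therefore not known. The companion genes, 180 symbols in 10 lists, are other genes of the same pathways and ER chaperones, and the marker lists are those described above. Members and lists were chosen with earlier results of these data known. All 49 members are named. Of each companion list except the ER chaperones, the text names up to 4 genes past the test and the highest gene. Further ones are named where all that passed are given. The ER chaperones are given by their counts only. A gene that is counted in the totals is not reported here by name. Genes that overlap a member, Lcn2, Saa1, and the 2 ratios were added after the values were seen. Coordinates are those of the deposited table (GRCm38), overlaps use GENCODE M21, and Python 3.11.15 and matplotlib 3.10.9 drew the figures.

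Alternatives were the pseudocount, the filter, the scaling, a plain variance, limma-voom applied to the whole reads, a replicate block and each library left out. Leaving out AL replicate 3 and CR replicate 3 together was chosen after the data were seen.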

Additional observations from a re-analysis of the deposited data

Results flagged for a closer look

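In the 4 CR livers, 1 of the 49 genes had a library far from the others of its group. Csgalnact2 was at 3.03 FPKM in CR replicate 3, against 2.28 to 2.40 FPKM in the other CR libraries. Chance alone gives about 1 such case in 20 groups. CR replicate 3 was also the CR library with the least Kupffer and endothelial marker RNA, and the part of that in the value was not tested.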

How the results depend on the processing

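The 9 changed genes were recomputed under 17 alternatives, which gave 151 results of single genes. Of these 151 results 114 kept direction and call, 37 lost the call and 0 reversed. All 9 calls were kept with pseudocounts of 0.01 or 1, another scaling, a plain variance model and limma-voom (2870 genes called in all). With at least 1 FPKM in every library, Piga and Galnt10 were not tested. Pomgnt1 passed under that filter, the equal FPKM sum and limma-voom. With no filter 1 gene rose and 4 fell, with 25678 genes tested. With single libraries left out, 1 to 4 genes rose and 4 to 5 fell, and the median log2 fold change ran from -0.28 without AL replicate 2 to -0.10 without AL replicate 3. It was -0.12 without both AL replicate 3 and CR replicate 3. The replicate numbers do not pair the mice (correlations of 0.0313, -0.0442 and -0.0575), and with the replicate block 1 gene, Pigp, rose and 0 fell, with 990 genes called in all against 2724.

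Sign changes were limited to 8 genes that did not pass. With single libraries left out the log2 fold change ran from -0.048 to 0.065 for C1galt1c1, -0.070 to 0.085 for Gcnt2, -0.33 to 0.067 for Xylt2, -0.29 to 0.016 for Ndst1, -0.096 to 0.15 for Ndst2, -0.11 to 0.073 for Hs6st1, -0.098 to 0.033 for Csgalnact2 and -0.013 to 0.19 for Pign. Without both AL replicate 3 and CR replicate 3 it was -0.028 for C1galt1c1, 0.072 for Xylt2, 0.079 for Ndst1 and 0.10 for Ndst2. Quantile normalization gave 0.0036 for Gcnt2, 0.013 for Ndst2, 0.0096 for Hs6st1 and 0.014 for Csgalnact2, and the replicate block 0.019 for Gcnt2, 0.015 for Ndst2 and 0.015 for Csgalnact2. The cause of these changes was not tested. Low read numbers limit Pigf, Pigh, Chpf, Csgalnact1, Gcnt1 and Galnt2, and 3 or 4 mice a group limit the size of change that could be called.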
